A study of Mus musculus with 6 samples.

Results

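These are 34 genes, and not all the genes, of homologous recombination, the Fanconi anaemia pathway and mismatch repair, with checkpoint genes that act beside them. They were chosen by name, with earlier results of these data known, from the 28293 genes counted by RNA-seq. The 6 libraries were from cultured mouse dermal fibroblasts, which the labels call a cell line. All 34 were found and all passed the filter on low counts. Of the libraries 3 came from cells of the genotype Lap2alpha KO (KO) and 3 from wild-type cells (WT), both grown in DMEM with fetal calf serum and with no other treatment named. LAP2alpha is a splice form of lamina-associated polypeptide 2 without a membrane-spanning part, and it partners A-type lamins inside the nucleus. The labels name neither the method of the knockout nor the number of clones or cultures, so p-values here reflect library-to-library spread alone, and a difference between cell lines cannot be told apart from the loss of LAP2alpha. The KO libraries held 25768678 to 27281473 counts and the WT libraries 22159339 to 26553616.

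Homologous recombination repairs a broken chromosome by copying the sister chromatid. The break is first cut back to single-stranded DNA (resection), BRCA1 with its partners and BRCA2 then load the strand-exchange recombinase, and accessory proteins and motors help it find the matching sequence. The Fanconi pathway unhooks crosslinks between the DNA strands: a core complex attaches ubiquitin to the pair FANCD2 and FANCI, which then directs cutting and recombination. Mismatch repair removes copying errors behind the replication fork, and the kinases ATM and ATR signal breaks and stalled forks. Many of these genes are known targets of E2F transcription factors and are transcribed mainly in S phase, and LAP2alpha together with A-type lamins is known to bind the retinoblastoma protein, which restrains E2F.

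Most of the 34 genes were lower in KO. By edgeR's quasi-likelihood test with Benjamini-Hochberg adjustment over all tested genes (a gene is called at an adjusted p under 0.05), 28 fell, 2 rose and 4 were not called. Of the 15081 genes tested, 75.1% were called, 37.5% lower and 37.6% higher. Of the repair genes 82.4% fell beside 37.5% of all genes, and 5.88% rose beside 37.6%. The 34 were chosen with earlier results of these data known, so this contrast describes the list and is not a test of it. The median log2 fold change (KO over WT) of the 34 was −0.82, and that of all tested genes was 0.01. At least 2-fold decreases were called for 12 of the 34 and for 11.4% of all tested genes, and at least 2-fold increases for 0 of the 34 and 16.7% of all. KO and WT levels were fully separated in 30 of the 34 genes and in 76.8% of all tested genes. In whole cultures, fewer cells in the phase that transcribes a gene and less of its RNA in each cell cannot be told apart.

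Promoter stretches of some genes that fell, and of some that rose or were not called, are shown because the genes mostly moved together. These examples were picked by hand with their values known, and not all of the genes that moved most are among them. RefSeq promoter windows on GRCm38.p6 run from 250 bases before the transcript start to 50 after it and were matched for 27 of the 34 genes. The stretches below read along the transcribed strand, and capitals mark 2 kinds of motif. The first is an E2F-type heptamer, counted on either strand in any of the forms TTCCCGC (as in Bard1), TTGGCGC (as in Topbp1), TTGCCGC (as in Blm) and TTCGCGC. The second is CCAAT on either strand, the core of the site of the factor NF-Y. The first 2 stretches come from genes that fell and carry the heptamer upstream of the start, the third from Fanca, which fell most and has no heptamer in its window, and the fourth from Rad51b, which rose and has none either.
Fancb, chrX:164980382-164980501, plus strand: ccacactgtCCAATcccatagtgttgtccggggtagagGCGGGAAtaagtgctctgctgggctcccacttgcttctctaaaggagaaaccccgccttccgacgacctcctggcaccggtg
Brca2, chr5:150522411-150522530, plus strand: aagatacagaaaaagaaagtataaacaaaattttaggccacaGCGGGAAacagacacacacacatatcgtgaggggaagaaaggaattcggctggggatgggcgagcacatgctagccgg
Fanca, chr8:123318577-123318696, minus strand: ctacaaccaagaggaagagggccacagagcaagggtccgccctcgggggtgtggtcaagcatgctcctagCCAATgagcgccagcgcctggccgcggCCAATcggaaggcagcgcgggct
Rad51b, chr12:79297162-79297281, plus strand: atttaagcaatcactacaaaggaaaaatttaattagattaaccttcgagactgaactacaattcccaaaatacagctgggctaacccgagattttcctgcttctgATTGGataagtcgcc

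Short stretches around heptamers upstream of the start compare 3 genes that fell (Topbp1, Bard1 and Blm) with Fancg, which rose, and Fancm, which was not called. Chek1, which fell more than these 3 (log2 fold change −1.72), holds its heptamer after the start and is not printed. In Topbp1 a pair of heptamers on opposite strands overlap.
Topbp1, chr9:103305185-103305214, plus strand: gtccgctcggTTGGCGCGAAagtcggttcc
Bard1, chr1:71103164-71103190, minus strand: gccgctcagtTTCCCGCtcaggaagtt
Blm, chr7:80535124-80535150, minus strand: atcatccttcTTGCCGCgcagagcgtg
Fancg, chr4:43010336-43010362, minus strand: tcttttcagtTTCCCGCggaaccgtct
Fancm, chr12:65075539-65075565, plus strand: aCCAATcatcTTCCCGCcgcaaaatcg

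The E2F-type heptamer was found in the windows of 17 of the 27 genes (63.0%). Among all genes with a window it was found in 10.9% of 27025, and among the tested genes in 19.3% of 10030. CCAAT was found for 18 of the 27 (66.7%), for 41.1% of all genes with a window and for 43.7% of the tested genes. The DNA replication genes held the heptamer in 12 of 16 windows matched, the excision repair genes in 4 of 18 and the end-joining genes in 4 of 8. Of the 17 repair genes with the heptamer 15 fell (median log2 fold change −0.89), and of the 10 without it 6 fell (median −0.63). Of the 18 with CCAAT 13 fell (median −0.91), and of the 9 without it 8 fell (median −0.70). A match describes these letters only: Fancg rose with the same heptamer that Bard1 holds, and Fanca fell 3.42-fold with none in its window.

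**Figure D1:**
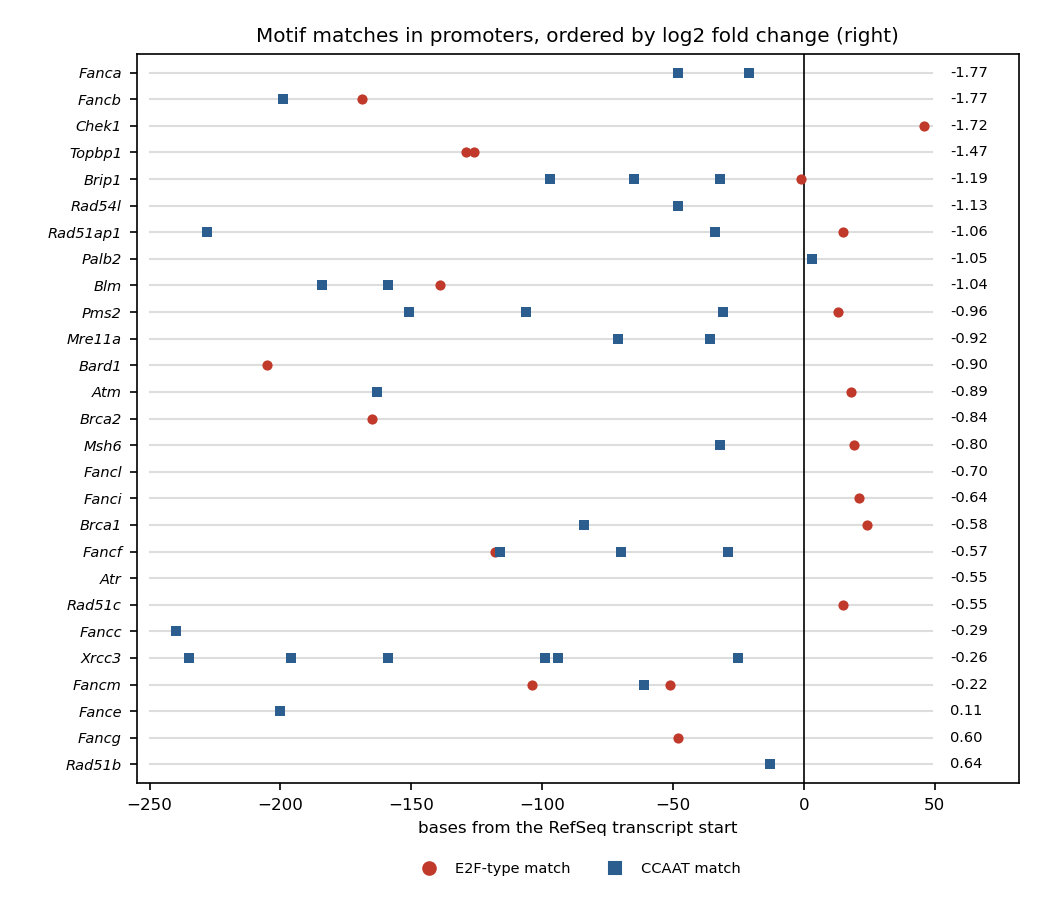
Positions of E2F-type (red circles) and CCAAT (blue squares) matches in the 27 matched promoters, in bases from the RefSeq transcript start (the first window where a gene has more than one), with genes ordered by log2 fold change, KO over WT, printed at the right. The heptamer occurs among the genes that fell most (Fancb, Chek1, Topbp1) and also in Fancg, which rose; Fanca at the top holds CCAAT matches alone.

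The BRCA genes all fell. Brca1, whose protein works with that of Bard1 as a ubiquitin ligase at breaks, had 39.8, 40.9 and 41.5 CPM (each count scaled to a library total of 1000000) in the KO libraries, against 56.2, 57.2 and 60.0 CPM in the WT libraries. Every KO library lay below every WT library, and the log2 fold change was −0.58 (SE 0.0525, edgeR adjusted p = 2.7e-06). Bard1 had 6.38, 5.24 and 6.52 CPM in KO, against 11.3, 10.1 and 10.7 CPM in WT. Its log2 fold change was −0.90 (SE 0.111), and the difference between it and its partner was not tested. Palb2, which joins BRCA1 to BRCA2, averaged 3.01 ± 0.27 CPM in KO and 5.89 ± 0.16 CPM in WT (SD, n = 3 each), 2.07-fold lower. All fold changes here are edgeR's after TMM scaling, which the CPM do not include, so decreases are somewhat larger than the printed CPM give. Brca2, which loads the recombinase, averaged 21.1 ± 1.86 CPM in KO and 36.0 ± 2.15 CPM in WT, 1.80-fold lower. Brip1, a helicase that binds BRCA1, fell most of the 5, with 13.4, 12.0 and 10.9 CPM in KO and 26.2, 25.7 and 26.7 CPM in WT (log2 fold change −1.19 with SE 0.0823; edgeR adjusted p = 3.5e-07). In all 5 genes the groups did not overlap, as in 76.8% of all tested genes.

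Of the 7 genes for proteins that assist the recombinase, 5 fell, 1 rose and 1 was not called, beside 37.5% lower and 37.6% higher of all tested genes. The motor proteins Rad54l and Rad54b, which slide on DNA and help strand exchange, fell most. Rad54l had 10.0, 10.9 and 10.7 CPM in KO and 21.2, 22.8 and 21.8 CPM in WT, 2.19-fold lower, and Rad54b had 7.77, 7.62 and 6.05 CPM in KO and 16.2, 16.2 and 15.7 CPM in WT, 2.37-fold lower. Lrrc41 covers 15.4% of the exonic bases of Rad54l on the other strand (log2 fold change −0.19, edgeR adjusted p = 0.053, not called). In the annotation Rad54b shares 35.8% of its exonic bases with Fsbp on the same strand, which had 0.40 ± 0.14 CPM in KO and 0.56 ± 0.19 CPM in WT (log2 fold change −0.58, edgeR adjusted p = 0.18, not called). Rad51ap1, which stimulates strand pairing, had 13.1, 15.6 and 12.9 CPM in KO and 26.4, 27.1 and 28.6 CPM in WT (log2 fold change −1.06 with SE 0.0839; edgeR adjusted p = 9.5e-07).

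The 4 paralogues of the recombinase in the list went different ways. Rad51b rose, with 16.5, 14.6 and 14.4 CPM in KO and 8.98, 10.2 and 8.56 CPM in WT (log2 fold change 0.64 with SE 0.0975; edgeR adjusted p = 0.00015). Rad51c, a member of the same complex, fell, with an average of 7.95 ± 0.64 CPM in KO and 11.05 ± 0.42 CPM in WT, 1.46-fold lower, and so did Xrcc2, which averaged 8.61 ± 0.81 CPM in KO and 13.5 ± 0.89 CPM in WT, 1.65-fold lower. For these 3 genes the groups did not overlap, as in 76.8% of all tested genes. Xrcc3, the partner of RAD51C in a second complex, was not called, with 4.51, 4.68 and 4.35 CPM in KO and 4.60, 5.76 and 4.91 CPM in WT (log2 fold change −0.26 with SE 0.125; edgeR adjusted p = 0.087), and its groups overlapped. Per kilobase of exon, Rad51b stood at 4.05 CPM per kb in KO and 2.46 in WT, and Rad51c at 1.81 in KO and 2.52 in WT, so that Rad51b was the more abundant of the 2 in KO while their WT levels lay close together.

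**Figure D2:**
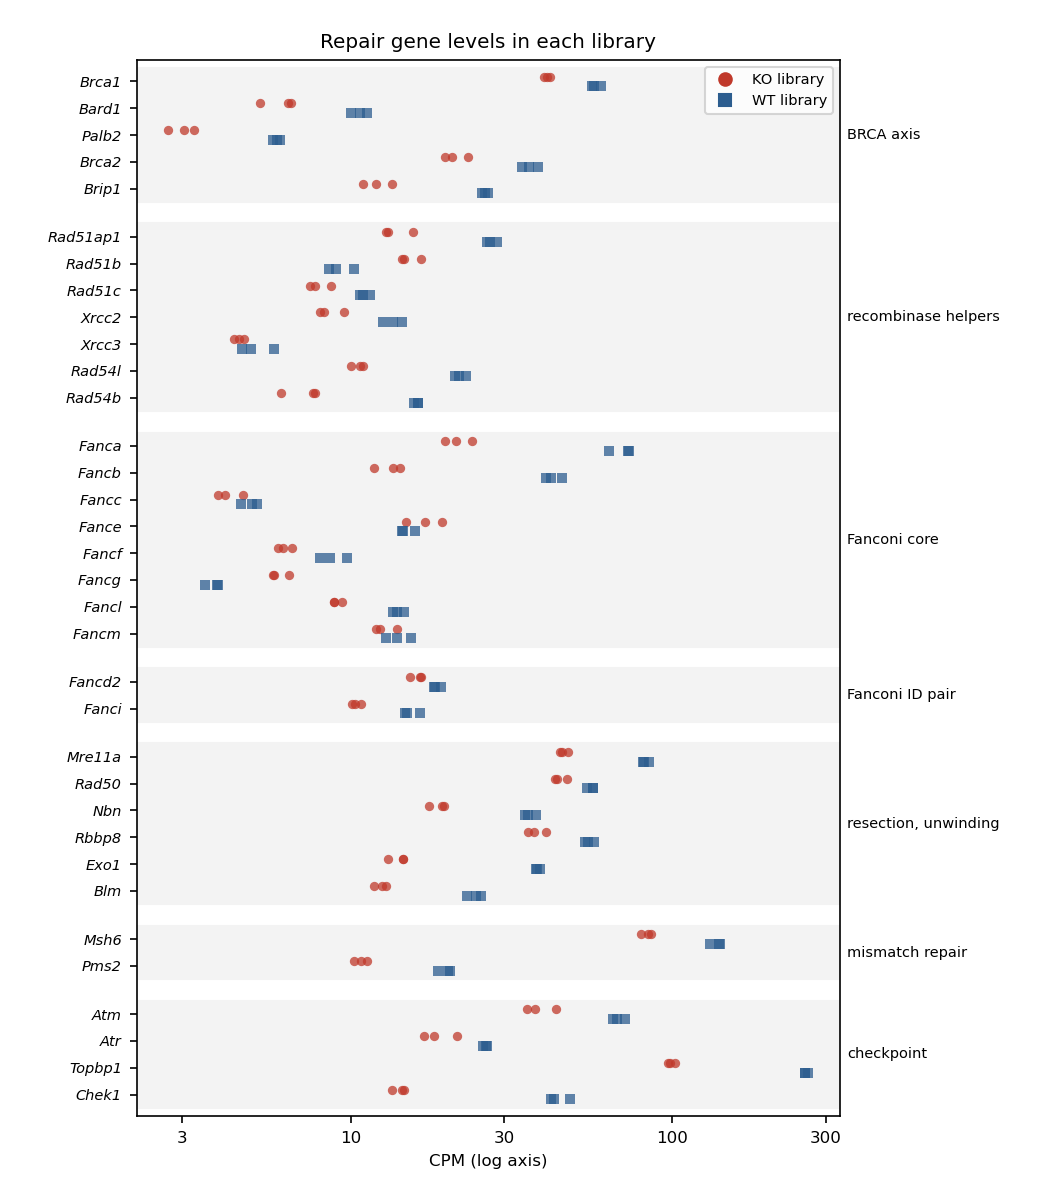
CPM of the 34 repair genes in each of the 3 KO libraries (red circles) and 3 WT libraries (blue squares), on a log axis, grouped by role. The KO libraries lie left of the WT libraries in most rows and right of them in Rad51b and Fancg; in Xrcc3, Fancc, Fance and Fancm the groups overlap.

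Of the 8 core complex genes of the Fanconi pathway among the 34, 4 were lower, 1 higher and 3 not called. Their median log2 fold change was −0.43. Of all tested genes 37.5% were lower and 37.6% higher, with 75.1% called, and with 8 genes the difference was not tested. Fanca and Fancb had the lowest fold changes of all 34 genes. Fanca, which pairs with FANCG in the core complex, had 21.3, 19.7 and 23.8 CPM in KO, against 63.6, 72.9 and 73.2 CPM in WT (log2 fold change −1.77 with SE 0.0841; edgeR adjusted p = 2.3e-08). Zfp276, which covers 10.5% of its exonic bases on the other strand, had 14.4 ± 2.06 CPM in KO cells and 15.6 ± 1.35 CPM in WT cells and did not pass the test (log2 fold change −0.19, edgeR adjusted p = 0.15). Fancb, an X-linked gene of the catalytic module, had 14.2, 13.5 and 11.8 CPM in KO and 45.3, 40.5 and 41.9 CPM in WT (log2 fold change −1.77 with SE 0.0808; edgeR adjusted p = 1.8e-08). The highest KO library of either gene was well under the lowest WT library.

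Fancl, the ubiquitin ligase of the complex, had 8.87, 9.43 and 8.89 CPM in KO and 13.9, 13.5 and 14.6 CPM in WT, 1.63-fold lower; Vrk2, over 13.7% of its exonic bases on the other strand, fell too (log2 fold change −0.48). Fancf, an adaptor, had 5.94, 6.18 and 6.56 CPM in KO and 9.75, 8.02 and 8.64 CPM in WT, 1.49-fold lower, while Gas2, which covers 15.0% of its exonic bases on the other strand, rose (log2 fold change 0.93, edgeR adjusted p = 3.4e-06). Fancg rose, with 5.79, 6.41 and 5.74 CPM in KO and 3.84, 3.88 and 3.53 CPM in WT (log2 fold change 0.60 with SE 0.116; edgeR adjusted p = 0.00084). The paired subunits FANCA and FANCG had transcripts that changed in opposite directions. The groups did not overlap in either gene, as in 76.8% of all tested genes. Per kilobase of exon, Fanca stood at 2.46 CPM per kb in KO and 7.98 in WT, and Fancg at 1.58 in KO and 0.988 in WT.

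The other 3 core genes were not called. Fancc had 4.62, 4.07 and 3.88 CPM in KO and 4.56, 4.93 and 5.11 CPM in WT (log2 fold change −0.29 with SE 0.123; edgeR adjusted p = 0.051). Fance, the subunit that contacts FANCD2, had 14.8, 17.0 and 19.2 CPM in KO and 14.5, 14.4 and 15.9 CPM in WT (log2 fold change 0.11 with SE 0.102; edgeR adjusted p = 0.35). Fancm, a DNA motor that brings the complex to DNA, had 13.9, 12.4 and 12.0 CPM in KO and 15.4, 14.0 and 12.9 CPM in WT (log2 fold change −0.22 with SE 0.0965; edgeR adjusted p = 0.064). In each of these 3 the KO and WT values overlapped. On the other strand 2010111I01Rik and Gm16133 together cover 18.6% of the exonic bases of Fancc; 2010111I01Rik had a log2 fold change of −0.10 (edgeR adjusted p = 0.35). The substrate pair both fell by less than 2-fold: Fancd2 averaged 16.1 ± 0.69 CPM in KO and 18.5 ± 0.51 CPM in WT (log2 fold change −0.28 with SE 0.0697; edgeR adjusted p = 0.0041), the smallest decrease called among the 34, and Fanci averaged 10.4 ± 0.35 CPM in KO and 15.4 ± 0.96 CPM in WT, 1.56-fold lower. Polg overlaps 16.0% of the exonic bases of Fanci on the other strand and fell as well (log2 fold change −0.52).

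All 6 genes of resection and unwinding among the 34 fell, beside 37.5% of all tested genes. Their groups did not overlap, as in 76.8% of all tested genes. Exo1, a nuclease that cuts back DNA ends and also acts in mismatch repair, had 13.1, 14.5 and 14.5 CPM in KO and 38.0, 38.9 and 37.6 CPM in WT (log2 fold change −1.52 with SE 0.0677; edgeR adjusted p = 1.5e-08). Blm, a helicase of the RecQ family, had 12.9, 11.8 and 12.5 CPM in KO and 25.4, 23.0 and 24.5 CPM in WT, 2.06-fold lower. Rbbp8, which encodes the resection factor CtIP, had 40.5, 37.3 and 35.7 CPM in KO and 54.6, 53.5 and 56.9 CPM in WT, 1.53-fold lower. The 3 genes of the MRN complex, which holds and processes broken ends, fell by different amounts: Nbn 2.02-fold, Mre11a 1.90-fold and Rad50 1.32-fold. Per kilobase of exon, Mre11a, Rad50 and Nbn stood at 7.72, 8.30 and 7.42 CPM per kb in KO and at 13.9, 10.4 and 14.2 in WT. Rad50, the lowest of the 3 per kilobase in WT, was the highest in KO.

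Both mismatch repair genes among the 34 fell. Msh6, a subunit of the sensor for single mismatches, had 79.9, 83.8 and 85.5 CPM in KO and 141, 131 and 140.1 CPM in WT (log2 fold change −0.80 with SE 0.055; edgeR adjusted p = 3.3e-07). It had the highest level per kilobase of the 34 genes in either group, 19.1 CPM per kb in KO and 31.6 in WT. Pms2, which encodes a nicking subunit, had 10.7, 10.2 and 11.2 CPM in KO and 20.4, 20.1 and 18.7 CPM in WT, 1.94-fold lower.

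All 4 checkpoint genes among the 34 fell. Topbp1, which activates ATR, had the highest count of the 34 genes, with 102, 98.0 and 97.1 CPM in KO and 259, 259 and 264 CPM in WT, and the smallest p (log2 fold change −1.47 with SE 0.0476; edgeR adjusted p = 2.1e-09). Chek1, the kinase that ATR activates, had 14.6, 14.5 and 13.5 CPM in KO and 48.2, 41.9 and 42.8 CPM in WT, 3.29-fold lower (edgeR adjusted p = 1.4e-08). The upstream kinases changed by smaller factors. Atm had 43.4, 35.3 and 37.4 CPM in KO and 67.3, 65.2 and 71.1 CPM in WT, 1.85-fold lower, and Atr had 21.4, 18.1 and 16.9 CPM in KO and 26.5, 26.3 and 25.8 CPM in WT, 1.47-fold lower. In these 4 genes too, every KO library lay below every WT library. Of all tested genes, 76.8% had groups that did not overlap, in either direction.

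**Figure D3:**
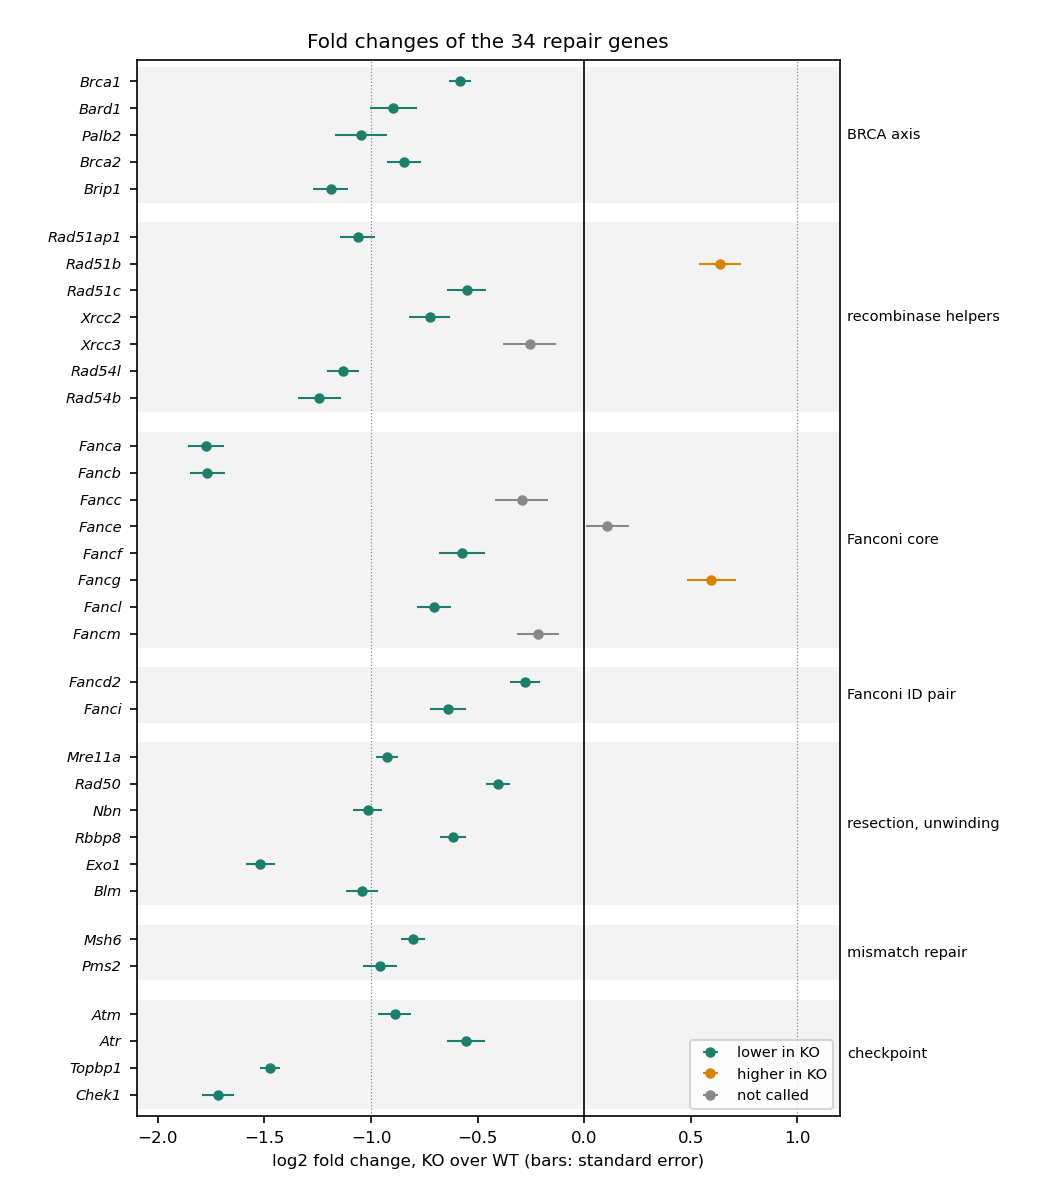
Log2 fold change, KO over WT, with its standard error for each of the 34 repair genes, grouped by role and coloured by the edgeR call; dotted lines mark 2-fold. Fanca, Fancb and Chek1 lie farthest left at −1.77, −1.77 and −1.72, and Rad51b (0.64) and Fancg (0.60) are the 2 genes on the right that were called.

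The spread between libraries was small beside most of these differences. The coefficient of variation over the 3 libraries of a group had a median of 6.40% over the 34 genes in KO and 4.37% in WT, and at most 13.3% in KO and 11.8% in WT. Scaled by TMM, the median gene of the 34 stood at 60.3%, 54.8% and 58.3% of its WT mean in the KO libraries and at 101%, 97.8% and 99.5% in the WT libraries. The smallest count of any of the 34 genes in any library was 72. Across the 34 genes, which are not independent replicates, the fold change went with the WT level per kilobase at a Spearman correlation of −0.484 and with exonic length at −0.176. The first correlation shares the WT values on both axes.

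The genes lie on 13 chromosomes, with 5 each on chromosomes 9 and 11, and 12 of them start within 1000 bases of a protein-coding gene transcribed the other way, by GENCODE M21. The neighbour was tested for 10 of these, a comparison added after the data were seen. Beside the 8 repair genes of these pairs that fell, 4 neighbours fell, 3 rose and 1 was not called. Of all tested genes, 37.5% fell and 37.6% rose. Zfyve26 rose beside Rad51b, which also rose (log2 fold changes 0.75 and 0.64), and Zfyve21 rose (0.21) beside Xrcc3, which was not called. Nbr1, an autophagy receptor gene that starts 194 bases from Brca1, rose, with 258 ± 2.90 CPM in KO and 96.7 ± 3.74 CPM in WT (log2 fold change 1.34 with SE 0.0499; edgeR adjusted p = 4.9e-09). Aimp2, which starts 117 bases from Pms2 and encodes a scaffold of tRNA synthetases, fell with it and averaged 20.2 ± 2.41 CPM in KO, against 52.1 ± 1.86 CPM in WT (log2 fold change −1.44), and Npat, a histone gene coactivator beside Atm, also fell (log2 fold change −0.58). Mospd2, beside Fancb, had 65.7 ± 5.55 CPM in KO and 70.6 ± 3.70 CPM in WT (log2 fold change −0.18, edgeR adjusted p = 0.039), where Fancb fell 3.40-fold.

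**Figure D4:**
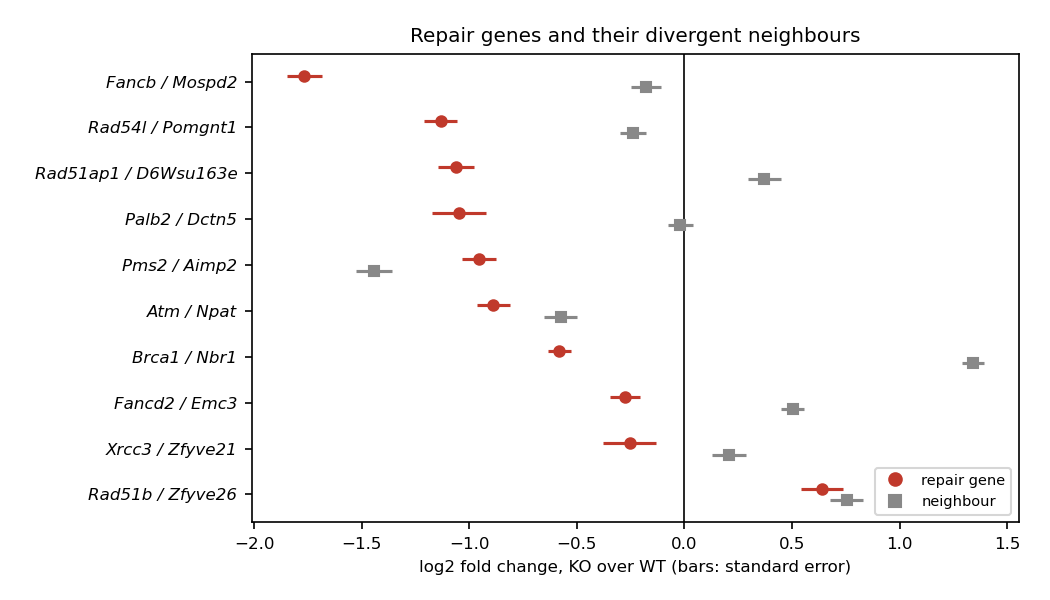
Log2 fold change, KO over WT, with standard error for 10 repair genes (red circles) and the protein-coding gene that starts beside each on the other strand (grey squares). Brca1 (−0.58) and Nbr1 (1.34) lie on opposite sides of 0, Pms2 and Aimp2 lie on the same side, and Dctn5 beside Palb2 lies at −0.02.

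Other genes of the same pathways were counted from lists of named genes, to be read beside the 37.5% of all tested genes that fell and the 37.6% that rose. Of 17 other checkpoint genes 16 fell and 1 rose (median log2 fold change −0.73). Tipin, a fork protection factor, averaged 52.4 ± 1.37 CPM in KO and 136 ± 5.12 CPM in WT, Clspn, which couples ATR to CHK1, fell (−1.38), and Trp53bp1, which opposes resection, was the gene that rose (log2 fold change 0.79). Of 15 other Fanconi and crosslink repair genes 13 fell, among them the crosslink nuclease gene Dclre1a (−1.39), the endonuclease gene Ercc4 (−1.89) and Ube2t (−1.07), the ubiquitin-conjugating partner of FANCL. In that list 1 gene rose, Faap100 (log2 fold change 0.62), which encodes a core complex subunit, and 1 was not called (median −0.49). Of 30 other recombination genes 18 fell, 9 rose and 3 were not called (median −0.32); Dna2, a resection nuclease, averaged 3.02 ± 0.034 CPM in KO and 15.2 ± 0.30 CPM in WT, and Rpa2, which coats single-stranded DNA, fell (−1.38). Among the 9 that rose, picked here with their values known, were Babam2, a subunit of the BRCA1-A complex, which averaged 30.9 ± 0.35 CPM in KO against 14.4 ± 0.26 CPM in WT (SD, n = 3 each), and the helicase Wrn (log2 fold change 0.89). Of 3 other mismatch repair genes Msh3 fell (−0.46), and Mlh3 (0.20, edgeR adjusted p = 0.080) and Pms1 (−0.16, edgeR adjusted p = 0.20) were not called.

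Genes of other repair routes were counted beside them. Of 10 end-joining genes 3 rose, 3 fell and 4 were not called (median log2 fold change −0.03), both shares below those of all tested genes (37.6% higher and 37.5% lower). Polm, a polymerase of end joining, averaged 19.3 ± 0.77 CPM in KO and 6.11 ± 0.88 CPM in WT, Paxx rose (log2 fold change 1.76), and the nuclease gene Dclre1c rose (1.11), while Xrcc6, which encodes Ku70, fell (−0.39). Of 22 excision repair genes 14 fell, 6 rose and 2 were not called (median −0.26), with Ung, a uracil glycosylase, lowest at a log2 fold change of −1.54. The difference between these lists and the 34 genes was not tested.

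**Figure D5:**
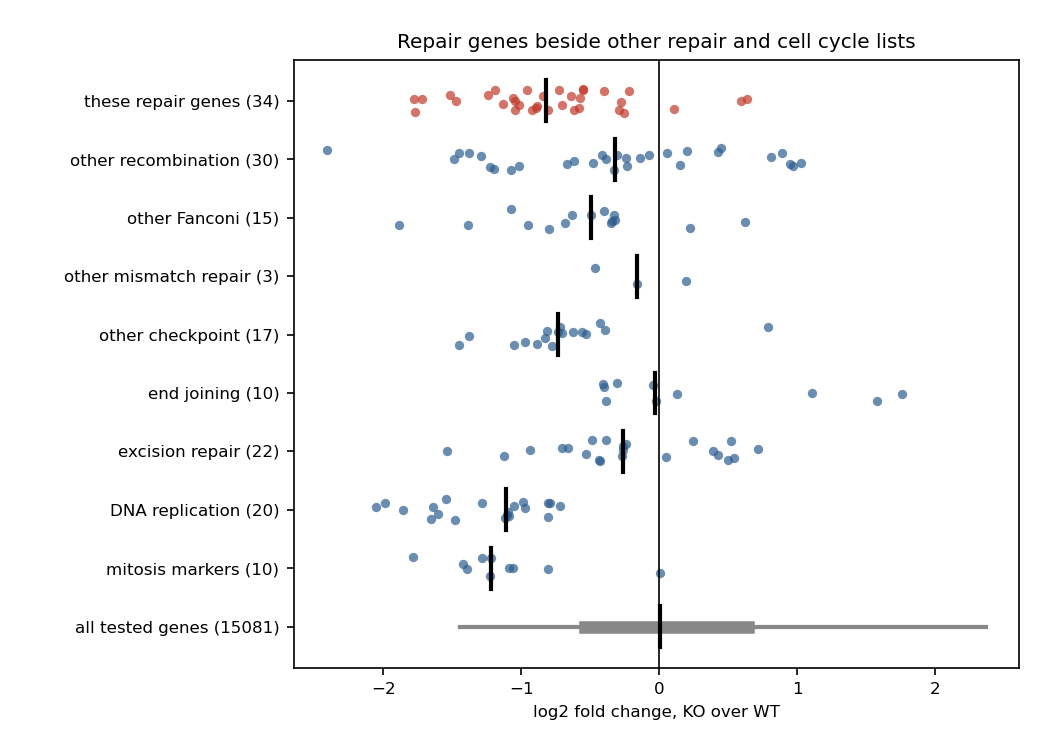
Log2 fold change, KO over WT, of each gene (points) in the 34 repair genes (red) and 8 other lists (blue), with black bars for the medians; the bottom row gives all tested genes as the median, the middle quartiles (thick) and the range between the percentiles 5 and 95 (thin). The median is −0.82 for the 34 genes, −0.03 for end joining, −1.11 for DNA replication and 0.01 for all tested genes.

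Markers of proliferation moved in the same direction. All 20 DNA replication genes fell (median log2 fold change −1.11), with a summed level of 1296 to 1357 CPM in the KO libraries and 3088 to 3133 CPM in the WT libraries. Of 10 mitosis markers 9 fell, with a median of −1.22 and a sum of 1205 to 1257 CPM in KO and 2273 to 2350 CPM in WT; Mki67, singled out with its value known, did not pass the test (log2 fold change 0.01). The part of a difference in cycling cells in the changes of the repair genes was not tested. The fibroblast markers summed to 22653 to 24149 CPM in KO and 6016 to 6397 CPM in WT; 9 of the 10 rose, while Thy1 fell (log2 fold change −0.75). The collagen genes Col1a1 and Col1a2, singled out for their levels, averaged 4883 and 10950 CPM in KO, against 962 and 1788 CPM in WT. Lum, picked likewise, had 69, 63 and 50 counts in KO, against 1, 1 and 3 counts in WT. Sums over the keratinocyte, endothelial, immune and melanocyte markers stayed at or below 6.27 CPM in KO and 8.39 CPM in WT over those with counts. Within these low sums some markers were called in opposite directions. Vwf rose (log2 fold change 3.31), while Cdh5 (−2.44), Dct (−1.49), Cdh1 (−0.97) and Krt10 (−0.535) fell. Ptprc, an immune marker, had 0 counts in each KO library and 1, 0 and 0 counts in WT. Cd68, another immune marker, was counted in every library and was not called. It had 15, 25 and 35 counts in KO and 14, 18 and 17 counts in WT. Krt5, Krt1, Cd3e, Adgre1, Kit, Tyrp1 and Sox10 were not analysed here. The targeted gene, Tmpo, had 135, 122 and 131 CPM in KO and 254, 249 and 252 CPM in WT, 2.05-fold lower; its count sums all LAP2 isoforms, so the alpha form was not measured alone.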

How the data were processed

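The authors deposited raw counts per Ensembl gene for 6 libraries, 1 file each, from poly(A)-selected, directional libraries, per the labels' protocols. STAR 2.7.10b and GRCm38 are named in the submitters' processing notes. For the counting program, its annotation and its strand setting nothing is stated in the labels or file headers (not given in the sources used here); without strand, reads of overlapping genes on opposite strands cannot be told apart. Symbols came from GENCODE M21 for 28230 of 28293 identifiers. Levels are CPM of the deposited counts without TMM, and levels of different genes are compared per kilobase of merged exons. Fold changes include TMM, so they differ somewhat from ratios of the CPM. Differences between KO and WT were tested with edgeR 4.0.16 (R 4.3.3) after TMM, filterByExpr and a quasi-likelihood test; the SE is the log2 coefficient over the square root of its F statistic. The analysis was tested on simulated data in which far fewer genes changed than were called here. Such data cannot test how the scaling behaves with this many changed genes. Alternatives were other scalings and filters, DESeq2 1.42.0, limma-voom 3.58.1, the replicate number as a block, a minimum fold of 2 and single libraries left out. Named are all 34 genes, Tmpo, up to 4 genes with the smallest p of each further list, and called genes opposite to most called genes of their list where these number 3 or fewer; other genes named were picked with their values known. Genes beside or overlapping members were picked by position. The members and lists were chosen with earlier results of these data known. Figures used matplotlib 3.10.9.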

Additional observations from a re-analysis of the deposited data

How the results depend on the processing

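The 28 decreases and 2 increases among the 34 genes were called under every scaling, filter, test and left-out library tried; with a 2-fold minimum 12 of the 34 were called, 12 lower and 0 higher, and 4233 of all genes. Leaving out single libraries gave 30 to 32 of the 34 called (28 to 30 lower, 2 higher, 11 to 13 lower at least 2-fold) and 10791 to 11441 of all genes. Upper-quartile scaling and library totals each left 8 genes at least 2-fold lower, against 12 with TMM, and moved the median of all genes by 0.06 and 0.08. The calls near the threshold depended on the setting. Fancc was called with limma-voom and without KO or WT replicate 1 (adjusted p = 0.046, 0.034 and 0.038), Xrcc3 without WT replicate 1 (0.043), and Fancm without a low-count filter, without KO replicate 1 and without WT replicate 3 (0.045, 0.033 and 0.026). For Fance the log2 fold change ranged, with 1 library left out, between −0.0015 (without KO replicate 3) and 0.21 (without KO replicate 1). The cause was not tested. With the replicate number as a block, 31 of the 34 and 11697 of all genes were called, Fancm (adjusted p = 0.024) among them. Same-numbered KO and WT libraries deviated from their group means with correlations of 0.147, −0.115 and 0.159, and differently numbered ones with −0.34 to 0.268. Not every library correlated best with its own number. With 3 libraries per group these correlations are tied to one another, so they cannot tell whether the numbers pair the samples.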
